A study of Mus musculus with 28 samples.

Results

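The aminoacyl-tRNA synthetase genes were followed in mouse T cells through stimulation. They were picked by name: the gene name on the array had to be a single amino acid letter followed by ars, with or without a final 1 or 2, or to be Eprs, Farsa, Farsb, Fars2 or Farslb. Of the 19481 genes measured, 30 fitted this rule, and all 30 were well above background on at least 3 of the 28 arrays, as the rule asks. By the accession of their probes, 19 of them encode cytosolic enzymes and 10 mitochondrial ones. The remaining gene, listed as Hars2 on the array, carries the accession of Dtd1, the gene of D-aminoacyl-tRNA deacylase, an editing enzyme and no synthetase, so its values are kept apart. The probe listed as Vars2 carries the accession of Vars, the cytosolic valine enzyme, and is counted as cytosolic. By names alone the classes would hold 18 cytosolic and 12 mitochondrial genes.

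RNA came from CD8 or CD4 T cells sorted from old BALB/c mice (20 months) or young ones (4 months), taken at 0 h or after 4, 12, 24 or 72 h in wells whose plastic carried stimulating antibodies against CD3 and CD28, the antigen receptor complex and its costimulatory receptor. The 20 groups were old CD8, young CD8, old CD4 and young CD4 cells, each at 0, 4, 12, 24 and 72 h. Each of the 4 groups at 0 h had 3 arrays and each of the 16 stimulated groups had 1. The RNA of a time point was a pool of 4 sortings and the repeats at 0 h are described as repeats of pools, so the p-values below may reflect technical spread. The labels call the cells naive but disagree on the gate, naming both a high and a low level of CD44.

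An aminoacyl-tRNA synthetase joins an amino acid to the transfer RNA that reads its codon, which is the step where the genetic code is read. Cells use one set of enzymes for the ribosomes of the cytosol and another, also encoded in the nucleus, for the ribosomes inside mitochondria. Kars and Gars encode the lysine and glycine enzymes of both compartments. Several cytosolic enzymes sit together in a multisynthetase complex held by scaffold proteins, and many of their genes are known targets of ATF4, the transcription factor of the amino acid response. T cells that are stimulated grow and make protein before they divide.

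Levels are log2 values relative to the 75th percentile of each array, changes are differences of these levels, and errors of changes are standard errors from the fit. A gene is said to have risen or fallen where its adjusted p (limma, Benjamini-Hochberg over all genes tested) was under 0.05. At each time the 2 stimulated arrays of a cell type, one per age, were set against its 6 arrays at 0 h. Between 17277 and 28826 probes per array were above background. Cd8a averaged 6.70 in CD8 and -2.51 in CD4 cells at 0 h, and Cd4 averaged -3.30 in CD8 and -0.33 in CD4 cells. Stimulation went with the activation genes, which all 10 rose at 4 h in both cell types, and with lower levels of many marker genes. By 24 h in CD8 cells 6 of 8 B cell markers, 8 of 12 myeloid markers and 4 of 8 T cell markers (Cd3g, Cd3d, Cd8b1 and Lck) had fallen, where 17.0% of all genes fell. The summed linear level of the myeloid list was 0.835 to 0.964 in CD8 cells at 24 h, against 8.18 to 188 at 0 h, that of the B cell list was 2.29 to 3.23, against 10.6 to 25.9, and that of the T cell list was 426 to 437, against 628 to 943. In CD4 cells at 24 h the myeloid sum was 3.33 to 10.6, against 3.57 to 241 at 0 h, and the B cell sum 1.39 to 3.80, against 2.86 to 11.8. The part of other cells in the changes below was not tested. In bulk RNA fewer cells of a type and less RNA per cell cannot be told apart. Every stimulated time lay on slides of its own, apart from those of 0 h, so time and slide cannot be told apart either. No slide held both cell types. All 8 stimulated CD4 arrays were read on scanner G2505B with an earlier software version and all CD8 arrays on G2505C, while 4 of the 6 CD4 arrays at 0 h were read on G2505C. Cell type and slide therefore cannot be told apart at any time, nor cell type and scanner after stimulation. Against the 2 CD4 arrays at 0 h read on G2505B, 19, 20, 20 and 15 of 29 synthetases passed in CD4 cells at 4, 12, 24 and 72 h. These counts take both classes and both directions together and are not set against a share of all genes in that fit.

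Most cytosolic genes had risen by 4 h, when no mitochondrial gene of the rule passed the test. After 4 h in CD8 cells 14 of 19 cytosolic genes had risen and 1, Qars, had fallen, where 14.2% of all genes tested rose and 13.0% fell. In CD4 cells 18 of 19 had risen, against 15.7% of all genes. None of the 10 mitochondrial genes passed in either direction at 4 h in either cell type by limma. At an unadjusted p under 0.05, 2 of the 10 did so in CD8 and 3 in CD4 cells. The median change at 4 h was 1.70 for cytosolic and 0.15 for mitochondrial genes in CD8 cells, where the median of all genes was 0.08. In CD4 cells these medians were 2.10 and -0.32, and -0.08 for all genes.

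Some mitochondrial genes rose later. After 12 h in CD8 cells 17 of 19 cytosolic and 3 of 10 mitochondrial genes had risen, with 15.9% of all genes. After 24 h these counts were 17 and 5, with 16.1% of all genes. In CD4 cells 18 of 19 and 3 of 10 had risen at 12 h (24.1% of all genes), and 16 of the 17 cytosolic genes with a value and 6 of 10 mitochondrial ones at 24 h (25.1% of all genes). The mitochondrial median was 0.61 at 12 h and 0.76 at 24 h in CD8 cells, and 0.48 and 0.96 in CD4 cells, while the cytosolic median stayed between 1.81 and 2.13 at these times in both cell types. At 72 h the cytosolic median was 1.37 in CD8 and 1.31 in CD4 cells, with 15 of 19 genes higher than at 0 h in each (13.6% of all genes in CD8 and 22.1% in CD4 cells). The mitochondrial median was 0.21 and 0.15. At that time none of the 10 mitochondrial genes passed in CD8 cells, with 1 at an unadjusted p under 0.05, while in CD4 cells 3 were higher and 1 was lower (16.9% of all genes fell). The counts of 3 of 10 mitochondrial genes higher in CD4 cells, at 12 h and at 72 h, are near the shares of all genes, 24.1% and 22.1%.

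The gap between the classes was also seen on each array. The median cytosolic change exceeded the median mitochondrial change by 0.92 to 1.65 on the 8 stimulated CD8 arrays, against -0.13 to 0.18 on the 6 CD8 arrays at 0 h. On the 8 stimulated CD4 arrays the gap was 1.04 to 2.57, against -0.19 to 0.19 at 0 h. No stimulated array of either age fell into the range at 0 h.

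**Figure D1:**
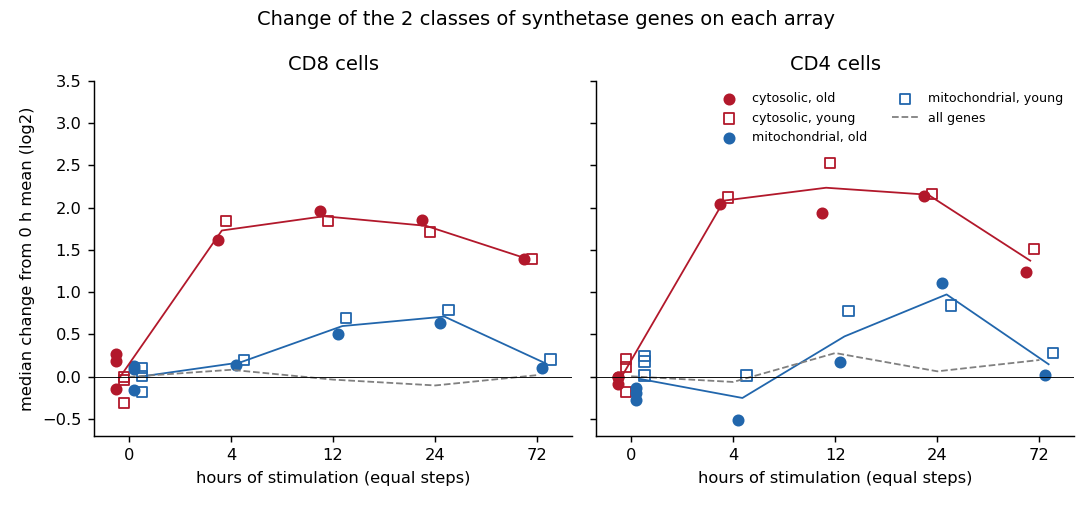
Median change of the cytosolic (red) and mitochondrial (blue) synthetase genes on each array, in log2 relative to the mean at 0 h of the same cell type, against hours of stimulation drawn in equal steps. Filled circles are old and open squares young cells, lines join the means over arrays and the dashed line is the median of all 19481 genes. The cytosolic median is 1.24 or more on all stimulated arrays, while the mitochondrial one peaks at 24 h, at 0.63 and 0.79 in CD8 and 1.1 and 0.84 in CD4 cells (old, then young).

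Among the cytosolic genes, Cars, which encodes the cysteine enzyme, had the largest change in CD8 cells at 4, 12 and 24 h. Its level in old CD8 cells was 1.43, 1.37 and 0.78 on the arrays at 0 h, then 4.13, 3.84, 3.77 and 3.27 at 4, 12, 24 and 72 h. In young CD8 cells it was 1.05, 1.12 and 1.11 at 0 h, then 4.33, 4.19, 3.82 and 3.38. All stimulated arrays lay above all arrays at 0 h, and both ages were highest at 4 h. The change at 4 h was 3.09 ± 0.23, or 8.49-fold (adjusted p = 3.1e-08). In CD4 cells it was 2.64 ± 0.23 at 4 h (adjusted p = 1.4e-07) and 3.04 ± 0.23 at 12 h (adjusted p = 3e-08). The probe lies at chr7:139986427-139986486 on mm7, the build named by the 10 files that list coordinates.

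Aars, the alanine enzyme gene, had the largest change at 72 h in CD8 cells. Old CD8 cells had levels of 3.45, 3.65 and 3.83 at 0 h, followed by 6.09, 6.17, 6.15 and 5.85. Young CD8 cells had 3.44, 3.40 and 3.33, followed by 6.23, 6.26, 6.02 and 5.97. Its change was 2.65 ± 0.27 at 4 h (adjusted p = 9.1e-07) and 2.39 ± 0.27 at 72 h (adjusted p = 2.6e-06). In CD4 cells the values at 0 h depended on the slide, with 3.99, 4.00 and 2.92 in old and 3.83, 3.88 and 3.13 in young cells, the last of each on another slide. The stimulated CD4 arrays, at 5.20 to 6.27, nevertheless lay above all 6.

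Iars and Yars, of the isoleucine and tyrosine enzymes, rose at all 4 times in both cell types. For Iars the change at 12 h was 2.68 ± 0.25 in CD8 (adjusted p = 5.2e-07) and 3.04 ± 0.25 in CD4 cells (adjusted p = 5.9e-08). For Yars it was 2.55 ± 0.28 (adjusted p = 2.8e-06) and 2.57 ± 0.28 (adjusted p = 1e-06), and at 72 h it was 2.29 in both. Gars, the glycine enzyme gene of both compartments, was 5.92-fold higher at 24 h in CD8 (2.57 ± 0.34, adjusted p = 1.1e-05) and 6.19-fold higher in CD4 cells. Kars, the lysine gene that also serves both, was 3.92-fold and 4.07-fold higher. At 4 h Gars was at 1.63 and Kars at 1.38 in CD8 cells, and at 2.53 and 1.86 in CD4 cells.

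Eprs encodes one protein with the glutamate and the proline enzymes. It rose at every time, by 1.80 ± 0.20 in CD8 (adjusted p = 2.8e-06) and 2.13 ± 0.20 in CD4 cells (adjusted p = 3.3e-07) at 4 h. Nars (asparagine), Lars (leucine), Tars (threonine), Mars1 (methionine, listed as Mars), Wars (tryptophan), Sars (serine) and Hars (histidine) also rose at all 4 times in CD8 cells, by 0.90 to 2.44. In CD8 cells 14 of the 19 cytosolic genes rose at all 4 times, and in CD4 cells another set of 14, with Dars and Vars in place of Lars and Tars. Lars and Tars had no value in CD4 cells at 24 h, so they could not be in that set. Hars, Mars1 and Nars are in it with 1 CD4 array at some times. The share of all genes that rose at all 4 times was not counted. The rise came later for Vars, which passed in CD8 cells from 12 h (1.67 ± 0.35, adjusted p = 0.0013), and for Farsb, the beta subunit gene of the phenylalanine enzyme (1.35 ± 0.34 at 12 h, adjusted p = 0.0056). Rars, of the arginine enzyme, was higher at 12 and 24 h in CD8 (1.44 and 1.29) and at 4 and 12 h in CD4 cells (2.20 and 1.65).

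Qars, the glutamine enzyme gene, moved against the rest at 4 h. Its levels in old CD8 cells were 5.22, 5.18 and 4.86 at 0 h and 4.33 at 4 h, and in young CD8 cells 4.84, 4.94 and 4.98 at 0 h and 4.35 at 4 h. Both stimulated arrays lay below all 6 at 0 h, and the change was -0.66 ± 0.24 (adjusted p = 0.047). It did not pass with median scaling (-0.61), slide as a random block (-0.64), the mean of all probes (-0.44) or only the arrays at 0 h of the same scan day (-0.51). In CD4 cells it was -0.51 ± 0.24 at 4 h (adjusted p = 0.12), with overlapping arrays, and then 0.85 to 1.04 at 12, 24 and 72 h, which passed. A second Qars probe gave -0.47 in CD8 and -0.41 in CD4 cells at 4 h. Mammals have no mitochondrial glutamine enzyme, since mitochondria charge that transfer RNA with glutamate and then convert it.

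Dars, of the aspartate enzyme, rose in CD4 cells and did not pass in CD8 cells. Old CD4 cells had levels of 2.98, 2.86 and 2.94 at 0 h, then 4.37, 4.80, 4.48 and 3.67. Young CD4 cells had 2.08, 2.06 and 2.39, then 3.73, 4.17, 3.66 and 3.93. The change was 1.93 ± 0.29 at 12 h (adjusted p = 2.8e-05). In CD8 cells the ages parted: old cells had 3.40, 3.01 and 2.90 at 0 h and 4.46 at 12 h, whereas young cells had 2.64, 2.99 and 2.98 at 0 h and 2.85 at 12 h. The 2 CD8 arrays at 12 h lay on different slides read on different days, so age and slide cannot be told apart there. There the changes ran from -0.14 to 0.67 (adjusted p from 0.088 to 0.76), and a second probe gave -0.62 to 0.41 in CD8 and 0.77 to 1.88 in CD4 cells.

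**Figure D2:**
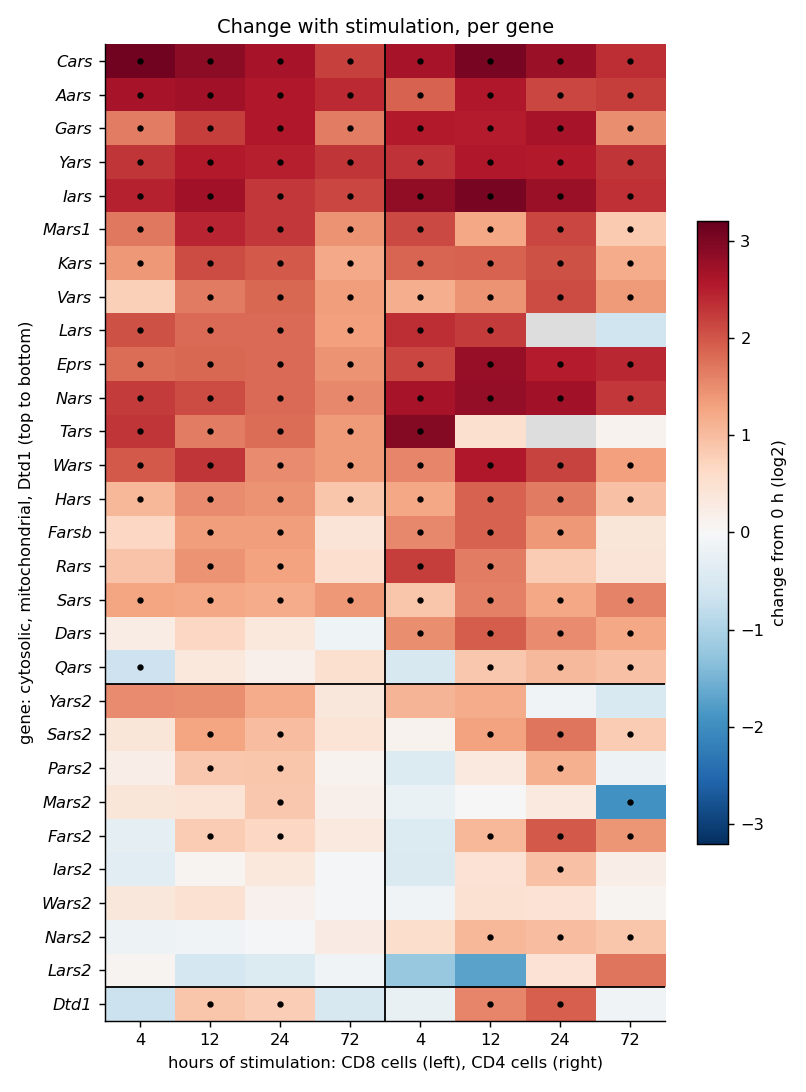
Change from 0 h per gene (rows: 19 cytosolic, then 9 mitochondrial, then Dtd1, each ordered by the change at 24 h in CD8 cells) at 4, 12, 24 and 72 h in CD8 (left) and CD4 cells (right), as log2 in colour. Dots mark an adjusted p under 0.05 and grey marks no value. All cytosolic rows except Qars, Dars, Farsb, Rars and Vars carry a dot in each CD8 column, and no mitochondrial row carries one at 4 h.

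The mitochondrial genes that rose did so by 1.57-fold to 3.92-fold at 24 h. Fars2, which encodes the single-chain phenylalanine enzyme of mitochondria, rose further in CD4 than in CD8 cells. Old CD4 cells had -0.64, -0.63 and -0.53 at 0 h, then -1.02, 0.52, 1.67 and 0.99, and young CD4 cells had 0.07, -0.07 and -0.20, then -0.54, 0.94, 1.61 and 1.19. Its change at 24 h was 1.97 ± 0.21 in CD4 (adjusted p = 6e-07) and 0.65 ± 0.21 in CD8 cells (adjusted p = 0.021). Sars2, of the serine enzyme, rose at 12 h by 1.26 ± 0.27 in CD8 (adjusted p = 0.0014) and 1.29 ± 0.27 in CD4 cells (adjusted p = 0.00072), and at 24 h by 0.98 and 1.71. Pars2, the proline gene, was higher at 12 and 24 h in CD8 (0.87 and 0.88) and at 24 h in CD4 cells (1.14 ± 0.25, adjusted p = 0.0011).

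The other mitochondrial genes were less uniform. Mars2 (methionine) passed at 24 h in CD8 cells (0.87 ± 0.28, adjusted p = 0.02), Iars2 (isoleucine) at 24 h in CD4 cells (0.94 ± 0.26, adjusted p = 0.0055), and Nars2 (asparagine) at 12, 24 and 72 h in CD4 cells (1.07, 0.98 and 0.89) with -0.12 to 0.27 in CD8 cells. Wars2 (tryptophan) passed at no time, with changes of -0.12 to 0.49. Yars2 (tyrosine) was 1.52 ± 0.56 at 4 h and 1.50 at 12 h in CD8 cells (adjusted p = 0.051 for each): its arrays there, at 2.76 to 3.43, lay above those at 0 h, at 1.19 to 1.76. One old CD4 array at 0 h held 4.27 for Yars2, where the other 5 held 1.04 to 1.54. Lars2 (leucine) passed at no time either. It ranged from 9.11 to 10.35 over the CD8 arrays, and in CD4 cells it was at 4.62 on 1 old array at 0 h and at 5.08 on the old array at 12 h, against 7.11 to 10.23 on the others.

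**Figure D3:**
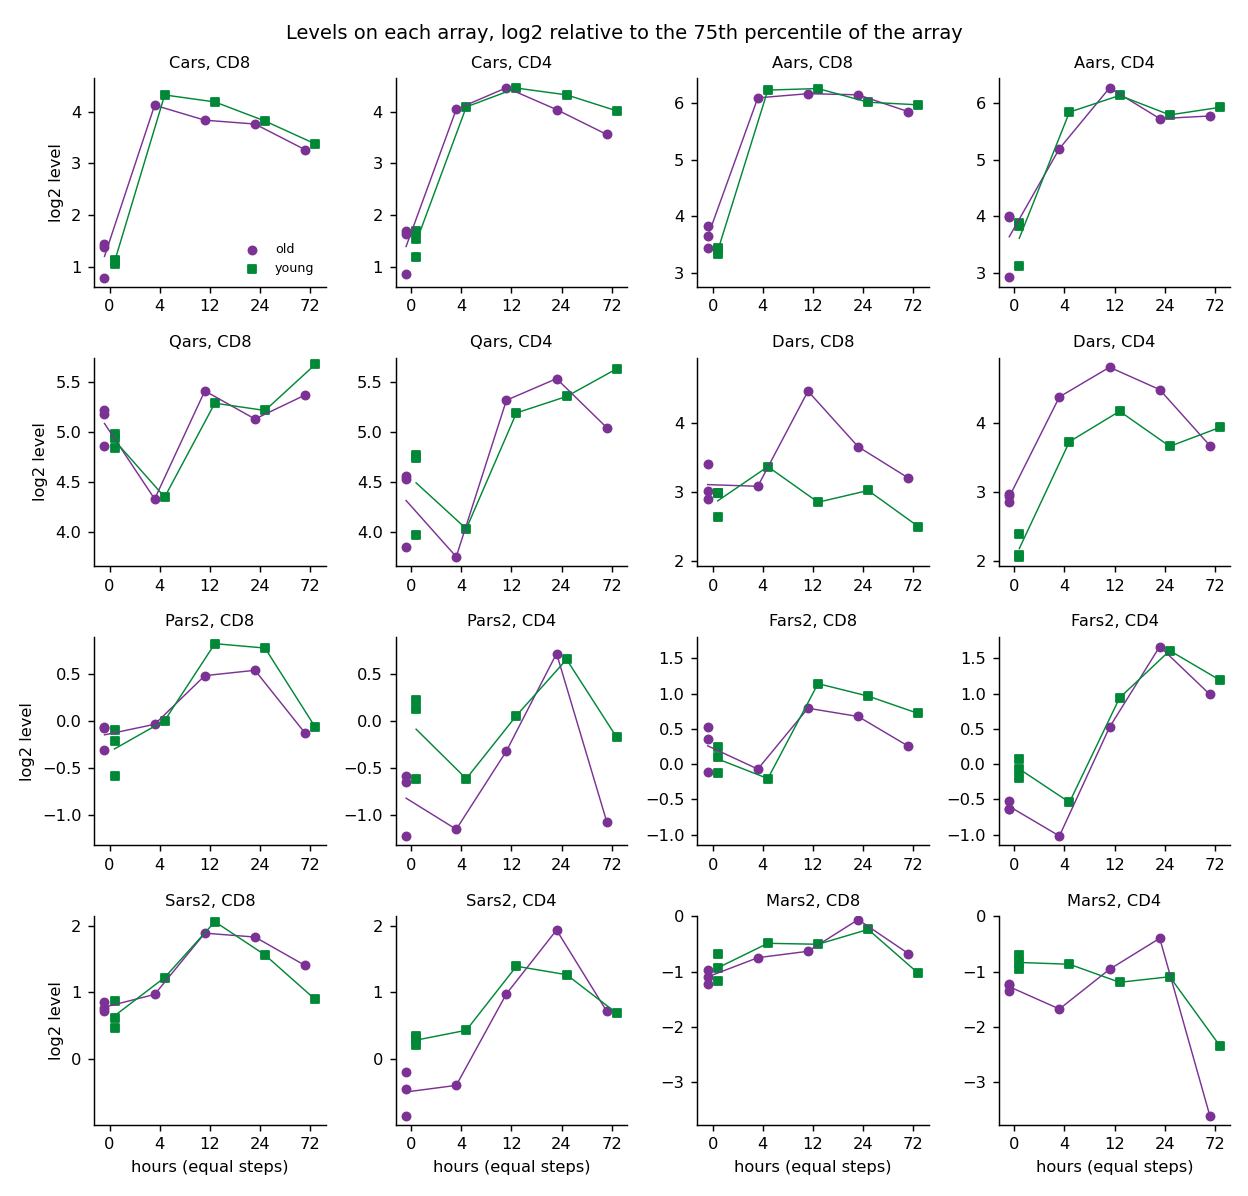
Levels on each array, in log2 relative to the 75th percentile of the array, of 4 cytosolic genes (Cars, Aars, Qars, Dars) and 4 mitochondrial ones (Pars2, Fars2, Sars2, Mars2) against hours in equal steps, in CD8 and CD4 cells. Circles are old and squares young cells, and lines join the group means. Cars and Aars are up by 4 h, Qars in CD8 cells is lowest at 4 h, and Mars2 in CD4 cells ends at -3.62 and -2.35 at 72 h.

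Most genes of both classes had lower levels at 72 h than at 24 h. In CD8 cells 25 of 29 changes were below 0, with a median of -0.47 against 0.06 for all genes, but no gene passed by limma (7 at an unadjusted p under 0.05, and 0.734% of all genes passed). In CD4 cells 4 fell, where 8.68% of all genes fell, among them Mars2 by 2.24 ± 0.34 (adjusted p = 0.00049), Pars2 by 1.30 ± 0.31 (adjusted p = 0.0088) and, among the cytosolic genes, Mars1 by 1.29 ± 0.38 (adjusted p = 0.031), with 1 of its 2 arrays missing at 24 h. Mars2 had fallen below its level at 0 h, with -3.62 in old and -2.35 in young CD4 cells at 72 h, against -1.24, -1.23 and -1.35 in old and -0.70, -0.96 and -0.85 in young CD4 cells at 0 h (change -1.93 ± 0.28, adjusted p = 2.1e-05). With slide as a random block only the call of Mars2 was left of these 4, and without the old CD4 array at 24 h or at 72 h 1 call was left.

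Responses were also set against each other between CD8 and CD4 cells, whose stimulated arrays differ in slide, scanner and software as well. The difference of the changes, CD8 minus CD4, passed for no synthetase at 4 h (3 at an unadjusted p under 0.05) or 12 h (5), for Fars2 at 24 h (-1.32 ± 0.30, adjusted p = 0.019) and for 6 of 29 at 72 h, where 0.0616%, 1.24%, 4.82% and 8.18% of all genes passed. Over all genes the median difference was -0.23 to 0.10. Of the 6, Dars (-1.39 ± 0.40, adjusted p = 0.041), Eprs (-0.97 ± 0.29, adjusted p = 0.043) and Fars2 (-1.10 ± 0.30, adjusted p = 0.028) had the lower change in CD8 cells. Mars2 was at 2.09 ± 0.39 (adjusted p = 0.0035), from its fall in CD4 cells. Lars (1.96 ± 0.37, adjusted p = 0.0052) and Tars (1.26 ± 0.36, adjusted p = 0.043) rest on 1 CD4 array each at 72 h, and the other probes of these genes give no such gap. Other Lars probes were at 1.32 and 1.08 in CD8 and at 1.24 and 1.12 in CD4 cells at 72 h, and another Tars probe at 1.20 and 1.80. Other Eprs probes were at 1.56, 1.38 and 0.89 in CD8 and at 1.17, 1.99 and 1.99 in CD4 cells. The first of these Eprs probes had the higher change in CD8 cells, unlike the probe used. With slide as a random block no difference passed. With median scaling, where the median difference of all genes was -0.04 at 72 h against -0.19, only Mars2 did, and without the old CD8 array at 72 h 1 of the 6 did.

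Lars and Tars were among the 6 genes with missing values. In all 16 of 840 values were missing, each a bright spot flagged as uneven on a CD4 array at 12, 24 or 72 h. Lars and Tars had none left in CD4 cells at 24 h, and Hars, Mars1, Nars and Lars2 had 1 to 3 missing. With the flagged spots kept, the changes at 24 h in CD4 cells would be 0.93 for Lars and 0.54 for Tars, while other probes of theirs gave 2.54 and 0.57 for Lars and 1.89 for Tars. Of the genes of the rule, 12 had a further probe above background on all arrays. All 12 are cytosolic. Further probes of mitochondrial genes were dimmer, so that class was not checked in this way. Of 125 changes from 16 such probes, 117 had the sign of the probe used. The exceptions were a dim Hars probe, with 3 of 8 signs shared, 2 Lars probes at 72 h in CD4 cells and a Dars probe.

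Old and young cells were compared at 0 h, with 3 arrays each. No synthetase passed in CD8 cells (1 at an unadjusted p under 0.05, while 2.16% of all genes passed) or in CD4 cells (9, with 1.72% of all genes), and the age difference did not differ between the cell types for any (7, with 0.0513% of all genes). The median difference, old minus young, was 0.13 in CD8 and -0.18 in CD4 cells over the 29 genes, against -0.05 and -0.03 over all genes.

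The arrays at 0 h lay on 2 slides per cell type, and 1 slide held 4 of the 6. With slide as a fixed block 2 of 29 genes passed in CD8 cells and 9 in CD4 cells, where 9.55% and 22.8% of all genes passed, and 7 passed for the difference between the cell types (13.3% of all genes). The block takes out the difference between slides. Over the synthetases, differences between repeats had a standard deviation of 0.13 to 0.54 on the same slide and 0.34 to 1.19 on different slides. The p-values with the block may therefore reflect technical spread within a slide. The CD8 count is not above its share of all genes. Vars was the clearest of the genes that passed. It stood at 2.43, 2.38 and 2.23 in old CD8 cells and at 1.16, 1.19 and 1.22 in young CD8 cells, without overlap. In CD4 cells the order was turned round, with 0.68, 0.71 and -0.40 in old and 1.24, 1.22 and 0.69 in young cells, and the arrays overlapped by 1 pair. Its difference was 1.16 ± 0.29 in CD8 (adjusted p = 0.084) and -0.72 ± 0.29 in CD4 cells (adjusted p = 0.25), and within slides it was 1.20 and 1.07 in CD8 and -0.53 and -1.09 in CD4 cells. With the block the adjusted p was 0.0014 and 0.0082.

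The same held in CD4 cells for Sars2, with -0.45, -0.19 and -0.85 in old and 0.30, 0.35 and 0.20 in young cells. Its difference was -0.78 ± 0.20 (adjusted p = 0.087), within slides -0.64 and -1.05, and with the block the adjusted p was 0.0091. Yars, Pars2, Fars2, Kars and Mars2 were also lower in old CD4 cells with the block (differences of -0.75 to -0.44), while Dars and Tars were higher (0.75 and 0.57). With the replicate number as a block, which in CD4 cells follows the slides, Sars2 (adjusted p = 0.041) and Vars (adjusted p = 0.043) passed and 5.19% of all genes did. Of 8 B cell markers, 4 were higher in old CD4 and 2 in old CD8 cells at 0 h. In that fit, without a block, 236 and 322 of all 19481 genes were higher. The summed level of the B cell markers was 10.8 to 11.8 in old and 2.86 to 4.81 in young CD4 cells. In CD8 cells it was 16.9 to 25.9 in old and 10.6 to 12.0 in young ones. Their part in these differences was not tested.

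**Figure D4:**
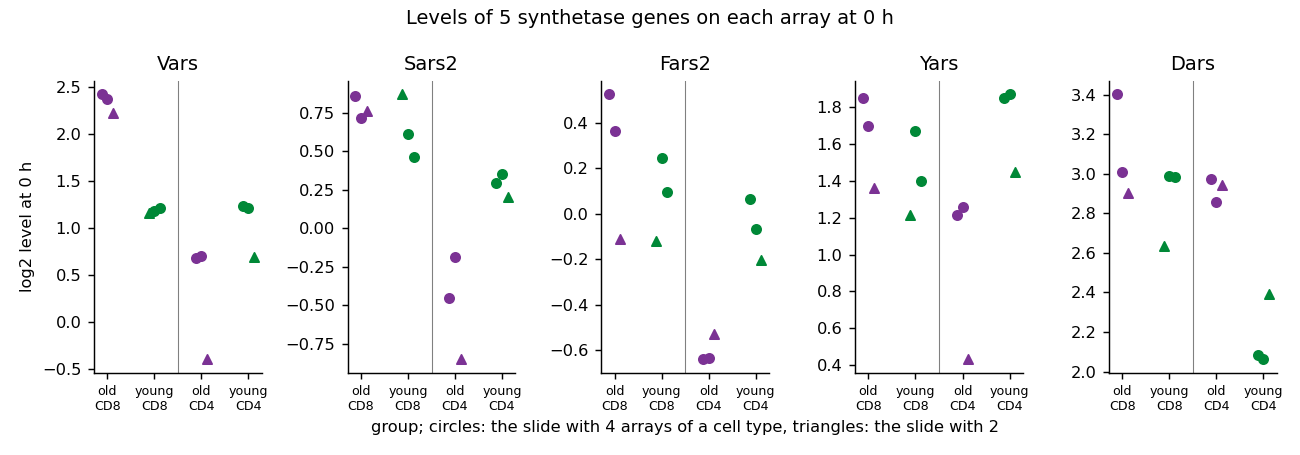
Levels at 0 h on each array of Vars, Sars2, Fars2, Yars and Dars, in log2 relative to the 75th percentile, for old CD8, young CD8, old CD4 and young CD4 cells from left to right. Circles are arrays on the slide with 4 arrays of a cell type and triangles those on the slide with 2. Old CD8 cells lie above young ones for Vars, and old CD4 cells lie below young ones for Sars2, Fars2 and Yars and above them for Dars.

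After stimulation no synthetase passed between old and young cells. Over the 4 times none passed in CD8 (1 at an unadjusted p under 0.05, with 0.411% of all genes passing) or in CD4 cells (0, with 0.113%). The median difference was -0.07 in CD8 and -0.18 in CD4 cells. All 10 mitochondrial differences in CD4 cells were below 0, from -1.15 to -0.04, where the median of all genes was 0.03. At 0 h the median mitochondrial difference in CD4 cells was already -0.47. At 4 h in CD8 cells the cytosolic genes had a median change of 1.50 in old and 2.07 in young cells, and 2 of 19 changed more in old cells. In CD4 cells at 4 h these medians were 2.21 and 1.96, and 10 of 19 changed more in old cells. These changes start from the 0 h mean of the same age, where the median cytosolic difference, old minus young, was 0.17 in CD8 and -0.16 in CD4 cells. Against the 0 h mean of both ages the medians at 4 h were 1.62 in old and 1.85 in young CD8 cells. In CD4 cells they were 2.05 in old and 2.12 in young cells. There was 1 array per age and time, so these were not tested.

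Before stimulation 3 of 29 synthetase genes were higher in CD8 than in CD4 cells, which is near the 8.7% of all genes that were. The 2 cell types shared no slide, so cell type and slide cannot be told apart here. Sars2 was 0.82 ± 0.14 higher (adjusted p = 0.0042) and its arrays did not overlap, at 0.46 to 0.87 in CD8 and -0.85 to 0.35 in CD4 cells. Vars was 1.08 ± 0.21 higher (adjusted p = 0.008) and Fars2 0.50 ± 0.14 (adjusted p = 0.041), both with overlap. None passed with slide as a random block or with median scaling.

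Dtd1, whose enzyme removes D-amino acids from transfer RNA, rose at 12 and 24 h, by 0.88 ± 0.27 and 0.78 ± 0.27 in CD8 (adjusted p = 0.02 and 0.035) and by 1.56 ± 0.27 and 1.91 ± 0.27 in CD4 cells (adjusted p = 0.00017 and 1.7e-05). At 4 h it was at -0.70 and -0.25, and at 72 h at -0.51 and -0.12, and neither passed.

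Another 9 synthetase genes are on the array under older or clone names and so outside the rule. Farsa, the alpha subunit gene of the cytosolic phenylalanine enzyme, rose at 4 h by 1.08 ± 0.23 in CD8 (adjusted p = 0.0016) and 0.84 ± 0.23 in CD4 cells (adjusted p = 0.0089), at which time its partner Farsb was at 0.67 and 1.54. Tarsl2, of a second threonine enzyme, rose at 24 h (1.69 and 1.34) and not at 4 h (-0.45 and -0.95). Of the 7 mitochondrial ones, Rars2, of the arginine enzyme, rose at 4 h in CD4 cells by 0.84 ± 0.28 (adjusted p = 0.029), when it was at 0.04 in CD8 cells, and was higher at 12 h (1.38 in CD8 and 1.46 in CD4 cells) and 24 h (0.96 and 1.87). It was the only 1 of the 7 to rise at 4 h in either cell type. Tars2 was higher at 12 h (0.75 in both) and 24 h (0.67 and 0.79). Cars2 fell at 4 h, by 1.26 ± 0.38 in CD8 (adjusted p = 0.019) and 1.97 ± 0.38 in CD4 cells (adjusted p = 0.00055). Ears2 fell at 4 h in CD8 cells by 1.11. Hars2 was lower at 24 h in CD8 (-0.69) and higher in CD4 cells (0.83), a difference that passed (-1.52). At 72 h in CD8 cells 3 of the 7 were lower, Hars2 (-1.07), Vars2 (-1.42) and Ears2 (-1.20), where 14.3% of all genes fell. In CD4 cells Vars2 (-1.03), Ears2 (-1.19) and Cars2 (-1.01) were lower at that time. Aars2 was higher at 12 and 24 h in CD4 cells (1.39 and 1.07), and Vars2 was lower at 4 h in CD4 cells (-0.78).

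Other genes of amino acid use and protein synthesis were followed as lists. In CD8 cells at 24 h 16.1% of all genes were higher and 17.0% lower. At that time 21 of 28 genes of amino acid synthesis and the ATF4 response were higher, with a median of 2.61. The largest changes were those of Cth, of cysteine synthesis (9.48 ± 0.67, adjusted p = 1.5e-08), Chac1, of glutathione breakdown (7.67 ± 0.70), Gpt2, of alanine synthesis (6.81 ± 0.42), and Pycr1, of proline synthesis (6.78 ± 0.53). Of 14 amino acid transporters, 9 were higher and 1 was lower. They were led by Slc1a4 (5.08 ± 0.62) and Slc7a5, the chain of the large neutral amino acid transporter (3.53 ± 0.29). Of 3 synthetase scaffold genes, Aimp2 (1.92 ± 0.34) and Eef1e1 (1.88 ± 0.19) were higher, and Aimp1 was at 0.43 (adjusted p = 0.3).

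The tRNA maturation and editing list had 19 of 37 genes higher and 2 lower at 24 h in CD8 cells, with Rpp25 of ribonuclease P at 4.30 ± 0.41 and the tRNA exporter Xpot at 2.12 ± 0.21. Of 33 cytosolic translation factors 21 were higher and 1 was lower, with Eif5a at 2.47 ± 0.25. Of 77 mitochondrial ribosomal protein genes 23 were higher at 4 h, 56 at 12 h, 51 at 24 h and 16 at 72 h in CD8 cells, and of 21 mitochondrial translation factors 6, 9, 10 and 3. Of all genes 14.2%, 15.9%, 16.1% and 13.6% were higher at these times in CD8 cells, and the last count of factors, 3 of 21, is near that share. Among these, Mrps22 (2.03 ± 0.25), Gfm1 (1.79 ± 0.26) and Tsfm (1.65 ± 0.28) had large changes at 24 h. In CD4 cells the ribosomal protein counts were 29 of 77, 63 of 76, 55 of 74 and 26 of 75. These lists held most higher genes at 12 or 24 h, as did all genes tested, with 15.7%, 24.1%, 25.1% and 22.1% higher in CD4 cells at 4, 12, 24 and 72 h.

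**Figure D5:**
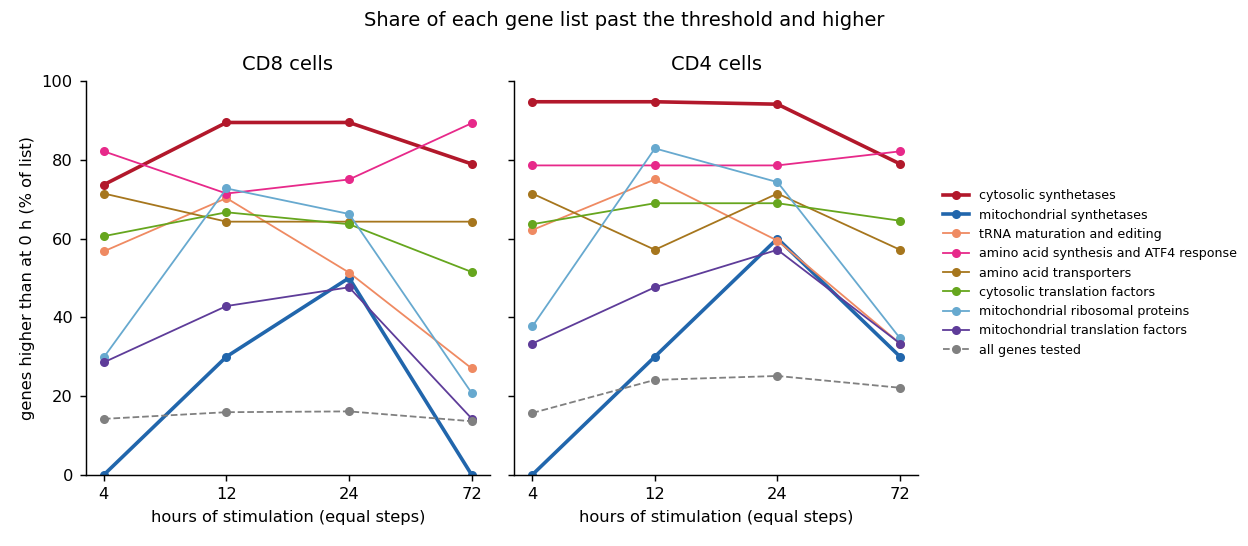
Share of each gene list that was higher than at 0 h with an adjusted p under 0.05, against hours of stimulation in equal steps, in CD8 and CD4 cells. Thick lines are the synthetase classes and the dashed grey line is all genes tested. Cytosolic synthetases stand at 14 of 19 genes at 4 h and 17 of 19 at 12 and 24 h in CD8 cells, and mitochondrial ones at 0, 3, 5 and 0 of 10.

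Promoter sequence, from 250 bases before to 50 after the RefSeq start on GRCm38.p6, was at hand for 12 cytosolic and 8 mitochondrial genes. These windows were searched on both strands for the core TGATGNAA of the amino acid response element, which ATF4 binds with a partner, for the E-box CACGTG, which Myc binds, and for the motif of NRF1, a factor of nuclear genes for mitochondria. The ATF4 core was in 5 of 12 cytosolic windows (41.7%), those of Aars, Gars, Iars, Tars and Yars, in 0 of 8 mitochondrial ones and in 3.97% of all 32851 promoters. The E-box was in those of Aars, Farsb, Iars and Tars, so in 4 of 12 (33.3%), in 0 of 8 mitochondrial ones and in 7.15% of all. The NRF1 motif was in 3 of 12 (25.0%), Farsb, Kars and Tars, in 2 of 8 mitochondrial ones, Iars2 and Mars2 (25.0%), and in 4.6% of all. A match describes the letters and shows no binding.

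The windows of Aars and Gars, the cytosolic genes with the largest change at 24 h in CD8 cells among those at hand, and of Sars2 and Mars2, the mitochondrial ones, show this contrast. Motif matches on either strand are in capitals, and none overlaps another. The windows are Aars at chr8:111033592-111033891, Gars at chr6:55037751-55038050, Sars2 at chr7:28741718-28742017 and Mars2 at chr1:55236927-55237226, all on the plus strand of GRCm38.p6.
Aars: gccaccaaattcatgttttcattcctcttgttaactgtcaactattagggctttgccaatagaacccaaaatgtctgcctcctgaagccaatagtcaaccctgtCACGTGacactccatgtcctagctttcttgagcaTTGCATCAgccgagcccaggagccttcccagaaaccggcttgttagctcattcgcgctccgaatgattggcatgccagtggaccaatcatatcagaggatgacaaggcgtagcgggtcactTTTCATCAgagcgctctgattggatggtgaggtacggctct
Gars: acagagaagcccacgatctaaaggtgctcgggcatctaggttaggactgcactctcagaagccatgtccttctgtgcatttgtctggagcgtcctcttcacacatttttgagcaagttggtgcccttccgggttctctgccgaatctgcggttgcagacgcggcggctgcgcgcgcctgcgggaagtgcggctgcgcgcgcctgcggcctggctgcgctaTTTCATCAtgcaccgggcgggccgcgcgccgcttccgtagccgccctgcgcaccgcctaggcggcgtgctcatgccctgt
Sars2: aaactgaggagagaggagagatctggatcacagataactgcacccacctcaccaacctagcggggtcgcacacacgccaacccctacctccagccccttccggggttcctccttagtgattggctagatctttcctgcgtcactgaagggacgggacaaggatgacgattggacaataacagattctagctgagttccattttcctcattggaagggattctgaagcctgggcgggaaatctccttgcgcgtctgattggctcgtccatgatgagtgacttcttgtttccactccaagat
Mars2: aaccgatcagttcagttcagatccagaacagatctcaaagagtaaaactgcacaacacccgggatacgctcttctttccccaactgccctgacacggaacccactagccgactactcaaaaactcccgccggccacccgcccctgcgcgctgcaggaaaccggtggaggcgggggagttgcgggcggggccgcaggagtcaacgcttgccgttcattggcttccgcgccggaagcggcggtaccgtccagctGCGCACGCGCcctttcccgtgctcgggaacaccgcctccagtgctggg
Aars holds 2 ATF4 cores, 1 of them after the start, and an E-box. Gars holds 1 core, 30 bases before the start, Mars2 an NRF1 motif 2 bases after it, and Sars2 none of the 3.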

How the data were processed

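RNA of 28 samples was hybridised to 1-colour Agilent mouse arrays. The authors deposited scanner files, and per the file headers these hold background-subtracted processed intensity values per spot, read with Agilent Feature Extraction 9.5.1.1 (scanner G2505B, 10 arrays) or 10.1.1.1 (G2505C, 18 arrays). Probe coordinates are on mm7, from the 10 files that list them; the headers of the other 18 name mm8 and those files list no coordinates. The authors also deposited a matrix of log2 values, of which 22 columns match their own array. The other 6, of stimulated CD8 cells, match another time of the same age and were left out of that alternative.

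From the intensities, log2 levels were computed and each array was scaled by subtracting its own 75th percentile. Control spots and outlier flags were left out, the spots of a probe were averaged, and the brightest probe above background on at least 3 arrays stood for a gene. Of 41174 probes, 22951 were named by accession, 6659 by symbol and 3109 by synonym in RefSeq, and 8455 kept the name in the files. Limma 3.58.1 in R 4.3.3 was fitted across 19481 genes, in 3 designs for 20 comparisons, with Benjamini-Hochberg adjustment and a threshold of 0.05. It was checked on simulated data in which arrays varied independently. In the real data the correlation within slides was 0.40 in the fit of time and 0.69 at 0 h. The check therefore cannot vouch for the p-values. Counts of arrays limit the precision. The genes of the rule are named, except 1 that is counted in its class but not reported singly here, and full statistics go to members with the largest changes or against the rest. The members and lists were chosen with earlier results of these data known.

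Replicate numbers at 0 h paired old with young CD4 arrays (correlations of deviations 0.548, 0.486 and 0.682), following the slides, and did not pair CD8 arrays (-0.240, 0.0861 and -0.406). Alternatives were median scaling, quantile normalization, background correction, the mean of all probes, no filter, the deposited matrix, slide and replicate blocks, and leaving out each array.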

Additional observations from a re-analysis of the deposited data

Results flagged for a closer look

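Of 58 sets of 6 arrays at 0 h, one per gene and cell type, 9 held an array whose gap to its neighbour exceeded Dixon's critical value for 6 samples. In samples of a single kind chance gives about 1 in 20. Each set here mixed 2 ages and 2 slides, so that rate does not apply. The third old CD4 array accounted for 6 of the 9. It was read on G2505B, on a slide shared only with the third young CD4 array. Lars at 5.14, Nars at 2.37 and Tars at 4.76 were higher there, as was Dtd1 at 2.56, and Vars at -0.40 and Lars2 at 4.62 were lower. The others were Iars2 at 2.34 on the second young CD4 array, Yars2 at 4.27 on the second old CD4 array and Lars2 at 9.71 on the first young CD8 array.

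The change from 0 h differed between CD8 and CD4 cells by the test of the difference itself (CD8 minus CD4) for Fars2 at 24 h, by -1.32. At 72 h it did so for Dars (-1.39), Eprs (-0.97), Fars2 (-1.10), Lars (1.96), Mars2 (2.09) and Tars (1.26).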

How the results depend on the processing

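The counts of synthetases past the threshold at each time against 0 h stayed within 1.5 times under every alternative run, and leaving out 1 array gave 16 to 21, 18 to 24, 19 to 23 and 13 to 19 in CD4 cells and 12 to 16, 17 to 21, 16 to 23 and 12 to 16 in CD8 cells at 4, 12, 24 and 72 h. Other counts moved. For CD8 minus CD4, quantile normalization gave 1 at 12 h. At 24 h (1 otherwise) median scaling, background correction and slide as a random block gave 0, and the mean of all probes 2. At 72 h (6 otherwise) the random block gave 0, median scaling 1, no filter 2, and background correction, the mean of all probes, flagged spots kept, the deposited matrix and the replicate block 3 each. Leaving out 1 array gave 0 to 2 at 12 h, 0 to 3 at 24 h and 1 to 6 at 72 h. For 72 against 24 h in CD4 cells (4 otherwise) median scaling gave 2, the random block 1 and flagged spots kept 7, with 1 to 6 on leaving out an array. In CD8 cells background correction gave 11 in place of 0. For age at 0 h (0 otherwise) slide as a fixed block gave 9 in CD4, 2 in CD8 cells and 7 for their difference. Background correction gave 1 in CD8 cells, as did leaving out the third old CD4 array (0 to 1). The replicate block changed no count of age, and within CD4 cells alone, where the pairing holds, it gave 2. For CD8 against CD4 cells at 0 h (3 otherwise) median scaling and the random block gave 0, background correction 6 and leaving out an array 2 to 4.

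With the mean of all probes, Nars2 in CD4 cells was at -0.72, -0.63 and -0.58 at 12, 24 and 72 h, Hars in CD4 cells at -1.37 and -2.01 at 24 and 72 h and in CD8 cells at -0.17 at 72 h, Iars2 at -0.68 in CD4 cells at 24 h and Qars at -0.51 in CD4 cells at 72 h, each with the sign turned. The mean takes in dimmer probes of these genes. In CD4 cells that of Nars2 was at -2.51, -2.23 and -2.04 at 12, 24 and 72 h. Those of Iars2 were at -0.62 and -2.36 at 24 h and those of Qars at -2.58 and 1.36 at 72 h, also in CD4 cells. That of Hars was at -1.02 and -1.58 in CD4 cells at 24 and 72 h and at -1.25 in CD8 cells at 72 h. The Hars probe used had no value on the old CD4 arrays at 24 and 72 h. Why the probes differ was not tested. Of the single values, 1447 kept their call and 133 lost it under these alternatives, and 4466 and 123 on leaving out an array. The background correction of the median signal, flagged spots kept and the block within CD4 cells were chosen after seeing the data, and correction of the mean signal was not run, since some files lack it. Each stimulated group has 1 array, which is then assumed to vary like the others, and time cannot be told apart from slide.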
